A study of Mus musculus with 8 samples.

Results

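The nuclei described here formed cluster 4 of 13 clusters of mouse liver nuclei and carried the markers of liver sinusoidal endothelium. Cluster 4 was read as a column of gene means in each of 2 pools, and every gene of those columns was taken. In cluster 4, 17951 of the 22578 listed genes had a value above 0 in at least 1 pool, 16661 in the MKO pool and 16655 in the control pool. The MKO pool came from 3 Tgfbr1 MKO livers (flox/flox; LysMcre), in which Cre recombinase is driven from the Lyz2 locus of myeloid cells, so the deletion is aimed at myeloid cells and not at endothelium. The control pool came from 3 livers with the same floxed alleles and no Cre (flox/flox). Whole-liver RNA was also sequenced from 3 MKO livers and 3 control livers. All mice were fed for 30 weeks on a MASH diet, used to bring on fatty liver with inflammation and scarring. The comparison asks how the sinusoidal endothelium differs when myeloid cells lack Tgfbr1, a TGF-beta receptor kinase.

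Sinusoidal endothelial cells line the capillaries of the liver lobule. They have open pores and no continuous basement membrane, take up waste macromolecules and immune complexes through scavenger and Fc receptors, and secrete factors such as BMP and Wnt ligands that act on hepatocytes. In chronic liver injury they can lose this specialised state, a change called capillarisation, and can display adhesion molecules that recruit leukocytes.

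The mean values of each column sum to 10000, so a value is a gene's share of the cluster's RNA per 10000. With 1 pool per genotype there was no replicate and no test between pools, and no interval could be attached to a mean because the sources used here do not give the numbers of nuclei. Ratios of MKO over control were read only for genes whose larger value reached a floor of 1.34, the 90th percentile of the non-zero values, with a pseudocount of 0.134. Of the genes in cluster 4, 1796 reached the floor, and every ratio below is a log2 ratio on that scale unless said otherwise. Bulk libraries held 17448117 to 23986319 recovered reads.

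The label held against its markers. Stab2, a hyaluronan-clearing scavenger receptor (chromosome 10, 86841198 to 87008025, - strand, mm10), had a value of 65.2 in the MKO pool and 70.5 in the control pool of cluster 4. Its next highest cluster was cluster 10, at 3.55 in the MKO pool and 14.4 in the control pool, so the mean in cluster 4 was 7.57-fold higher. Clec4g, a C-type lectin of these cells (chromosome 8, 3707064 to 3720651, - strand), had 11.6 in the MKO pool and 6.77 in the control pool, 11.9-fold above the next cluster. Dnase1l3, a secreted DNase (chromosome 14, 7964533 to 7994573, - strand), stood 15.8-fold, Fcgr2b, the inhibitory IgG receptor (chromosome 1, 170958617 to 170976547, - strand), 7.03-fold and Bmp2, a BMP ligand that acts on hepatocyte hepcidin (chromosome 2, 133552159 to 133562885, + strand), 4.48-fold above their next clusters. All 5 markers were highest in cluster 4 in both pools. Lyve1, another marker used for these cells, was low, with 0.263 in the MKO pool and 0.272 in the control pool.

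**Figure D1:**
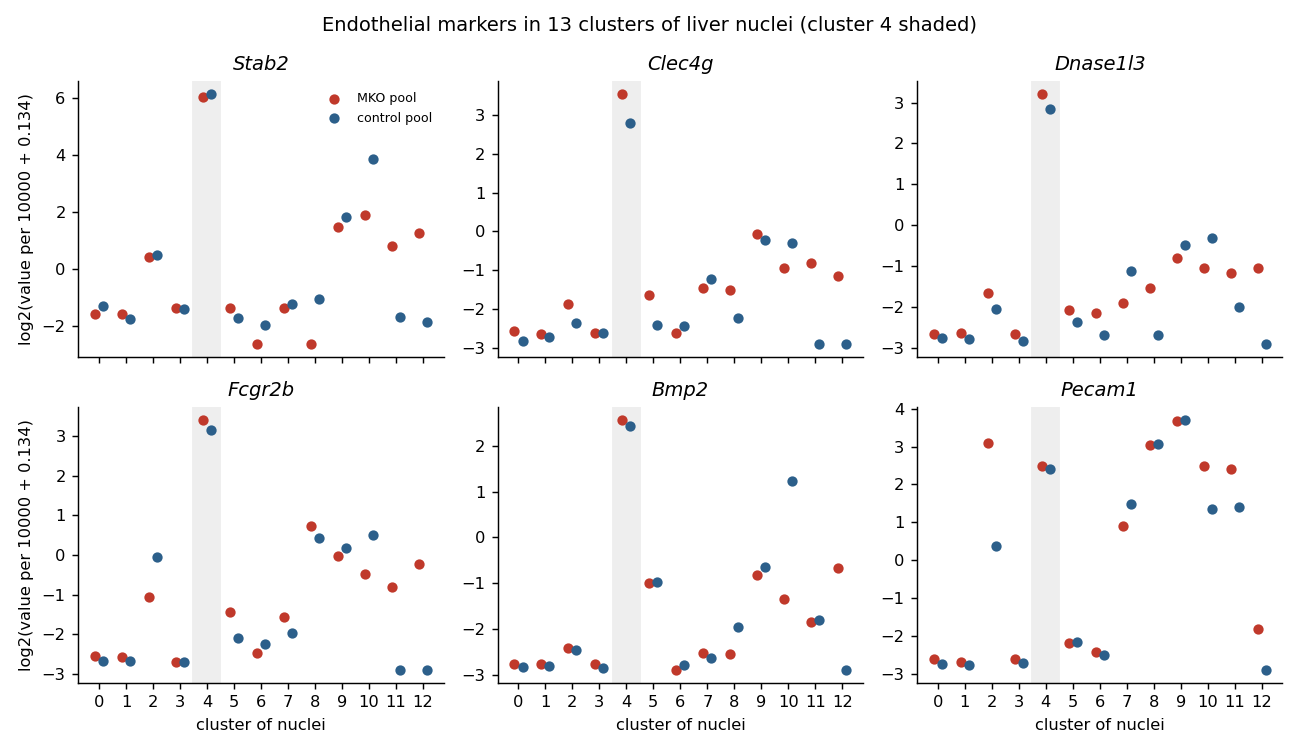
Level of 5 sinusoidal markers and of Pecam1 in the 13 clusters, as log2 of the value per 10000 plus 0.134, with the MKO pool in red left of the control pool in blue. The 5 sinusoidal markers peak in the shaded cluster 4 in both pools, whereas Pecam1 is lower in cluster 4 (5.49 in the MKO pool and 5.13 in the control pool) than in cluster 9 (12.6 and 13).

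Markers of other cell types were mostly near 0 in cluster 4. Vwf, which marks larger vessels, had 0.0410 in the MKO pool and 0.0627 in the control pool, against 9.08 and 10.7 in cluster 9. The 15 stellate cell genes summed to 1.59 in the MKO pool and 1.65 in the control pool, and the 15 T and NK cell genes to 0.332 and 0.129. The 18 macrophage genes summed to 17.1 in the MKO pool and 16.5 in the control pool. Mrc1, the mannose receptor that sinusoidal endothelium shares with macrophages, made up 14.4 and 15.7 of that. The rest of the sum was small in both pools and larger in the MKO pool. The defining macrophage gene Csf1r stood at 0.142 in the MKO pool and 0.00410 in the control pool. Hepatocyte genes were the exception: 20 of them summed to 171 in the MKO pool and 98.2 in the control pool of cluster 4. Over the other 12 clusters that sum ran from 106 to 324 in the MKO pool and from 59.5 to 304 in the control pool.

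Genes selective for cluster 4 were taken as those over the floor whose mean was at least 2-fold above the next highest cluster. There were 84, and 19 of them passed 4-fold. The clusters were formed on the same nuclei, so selectivity is a description with no test. All 84 were above the next cluster's mean in both pools, and 55 by 2-fold or more in each pool. The next cluster was cluster 9, the Vwf-rich one, for 51 genes and cluster 10 for 13. Just inside the threshold stood Bmp6 at 2.03-fold and Dusp3 at 2.03-fold, and just outside Lnx2 at 1.97-fold and Adgrl2 at 1.96-fold.

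The selective genes covered receptors, ligands and enzymes. Uptake receptors were Stab2, Clec4g and Fcgr2b with the endocytic adaptor Ehd3. Growth factor and guidance receptors were Kit (6.22-fold), Kdr, Flt4, Nrp1, Nrp2, Robo4 and the semaphorin receptor Plxnc1 (3.91-fold). Secreted or shed products were Bmp2, Bmp6, Dnase1l3, Tfpi, which inhibits tissue factor, and Oit3 (6.19-fold). Adam23, an ADAM family protein without protease activity, was 13.6-fold and Col13a1, a transmembrane collagen, 13.97-fold above the next cluster. The highest selectivity, 26.8-fold, belonged to the unnamed gene 6030498E09Rik on the X chromosome, at 1.22 in the MKO pool and 1.998 in the control pool. The transcription factors Maf and Zbtb46 were also among the 84. Sgk1, Oxr1, Selenop and Gatm were included as well, with next clusters 2, 5, 1 and 2.

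The bases just before the start of transcription are shown for the 3 most selective genes whose RefSeq start (GRCm38.p6) lay within 10 bases of the GENCODE start, since these are the sequences next to the genes that set cluster 4 apart. Each run is 150 bases, 5′ to 3′ on the gene's strand, ending at the base before the start.
Col13a1, chr10:61979109-61979258, - strand: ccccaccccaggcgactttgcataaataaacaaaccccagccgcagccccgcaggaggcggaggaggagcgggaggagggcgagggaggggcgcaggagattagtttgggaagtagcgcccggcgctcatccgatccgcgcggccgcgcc
Adam23, chr1:63445741-63445890, + strand: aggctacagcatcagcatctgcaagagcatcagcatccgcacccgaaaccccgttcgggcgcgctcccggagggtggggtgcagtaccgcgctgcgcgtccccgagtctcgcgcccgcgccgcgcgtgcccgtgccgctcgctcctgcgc
Clec4g, chr8:3720652-3720801, - strand: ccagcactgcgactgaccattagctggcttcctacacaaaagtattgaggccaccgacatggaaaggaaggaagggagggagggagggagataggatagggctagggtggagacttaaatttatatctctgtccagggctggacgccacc

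No base is in capitals, because neither of 2 motifs searched on both strands occurred in these runs. The motifs were AGATAA, bound by GATA factors, and CAGGAA, bound by ETS factors, which do not overlap. Over 250 bases upstream, CAGGAA was present in 18 of the 65 selective genes with a RefSeq promoter (27.7%), against 25.4% of 27025 promoters. AGATAA was present in 3 of the 65 (4.62%), against 10.2% of all.

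In cluster 4 the pools were close to each other. Of 1796 genes, 1647 lay within 1.5-fold, and the median log2 ratio was -0.08. There were 34 genes at least 2-fold higher in the MKO pool (1.89% of 1796) and 6 at least 2-fold lower (0.334%). At 1.5-fold the counts were 115 higher (6.4%) and 34 lower (1.89%). The clusters most alike stood at 2.74% higher and 1.74% lower in cluster 9, at 2.0% and 0.895% in cluster 5 and at 5.04% and 4.72% in cluster 2. On the higher side clusters 1 (1.67%), 8 (1.68%) and 7 (1.81%) stood below cluster 4, and the rest above it. On the lower side cluster 4 had the smallest share of the 13 clusters. Each cluster was read over its own floor, and clusters share the same 2 pools, so these percentages are set side by side without a test.

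**Figure D2:**
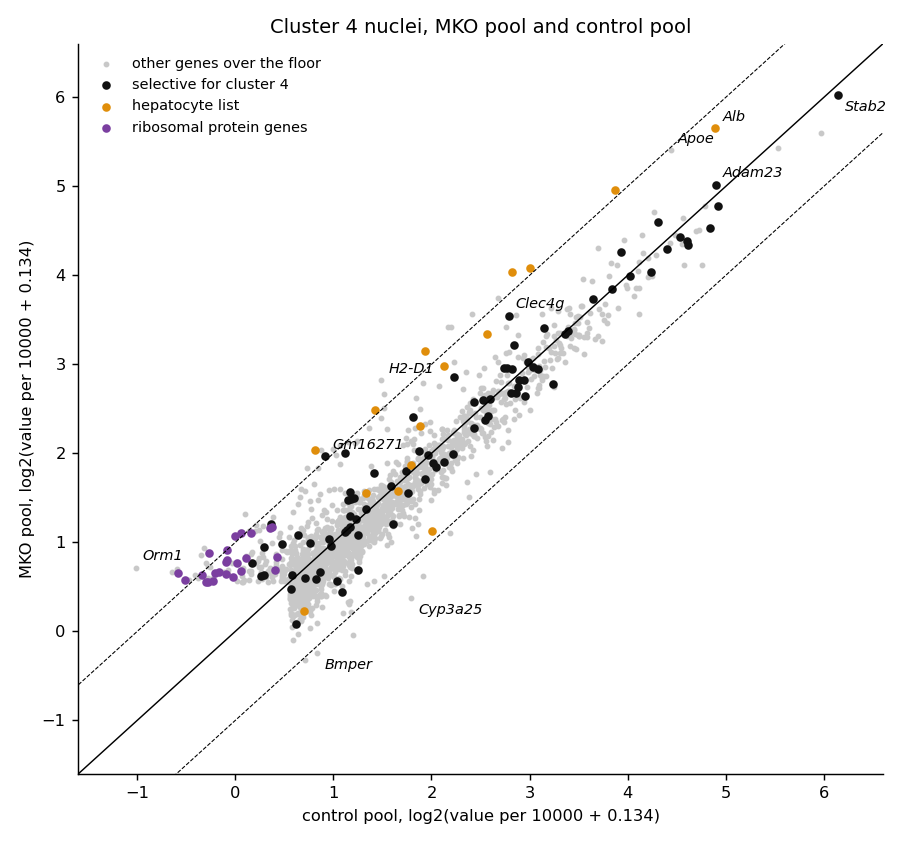
Each point is 1 of 1796 genes over the floor in cluster 4, with the MKO pool on the vertical axis and the control pool on the horizontal axis, both as log2 of the value per 10000 plus 0.134; dashed lines mark 2-fold. Selective genes (black) follow the diagonal, while hepatocyte genes (orange) and ribosomal protein genes (purple) mostly lie above it.

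The genes that define the cluster were at similar levels in both pools. The 84 selective genes summed to 625 in the MKO pool and 628 in the control pool, with a median log2 ratio of 0.01. Of them, 75 lay within 1.5-fold, 8 were at least 1.5-fold higher in the MKO pool and 1 was lower, against 6.4% and 1.89% of all genes over the floor. For the sinusoidal identity list of 22 genes the sums were 273 in the MKO pool and 274 in the control pool. In that list 21 genes reached the floor, their median log2 ratio was 0.02, and Clec4g alone lay past 1.5-fold.

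Among the given markers the ratios were 0.76 for Clec4g, 0.37 for Dnase1l3 (9.18 in the MKO pool and 7.05 in the control pool), 0.26 for Fcgr2b (10.5 and 8.72), 0.14 for Bmp2 (5.84 and 5.28) and -0.11 for Stab2. Clec4g was thus the marker with the largest distance between pools in cluster 4. The rest lay within 1.5-fold.

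Other selective genes above 1.5-fold in the MKO pool were of different kinds. Gpihbp1, which holds lipoprotein lipase on the capillary surface, had 3.87 in the MKO pool and 2.04 in the control pool (log2 ratio 0.88). In cluster 9 it had 1.66 and 0.697 (1.11). Shroom2, an actin-binding protein, had 7.14 in the MKO pool and 4.55 in the control pool (0.63, with 0.29 in cluster 9). Nostrin, which moves nitric oxide synthase from the membrane, had 5.18 in the MKO pool and 3.38 in the control pool (0.60, with 0.91 in cluster 9). Fam167b had 2.18 in the MKO pool and 1.15 in the control pool (0.84, with 1.35 in cluster 9). In cluster 10, the next cluster for Nostrin, all 4 stood the other way, at -1.54 for Gpihbp1, -1.38 for Shroom2, -0.85 for Nostrin and -0.99 for Fam167b. This was not particular to the 4 genes. The 84 selective genes as a whole were lower there, at a sum of 68.0 in the MKO pool and 165 in the control pool.

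Gm16271 showed the largest ratio among the selective genes, 1.06, with 3.79 in the MKO pool and 1.75 in the control pool. It lies on the + strand of chromosome 10 (86972216 to 87028015) and overlaps the 5′ part of Stab2 on the - strand. The sources used here do not say how strand entered the counting, and its reads and those of Stab2 may not be told apart. The single selective gene more than 1.5-fold lower in the MKO pool was 6030498E09Rik (-0.65). Next came Tspan18, a tetraspanin, at 1.48 in the MKO pool and 2.25 in the control pool (-0.56), and Gatm, an enzyme of creatine synthesis, at 6.75 and 9.34 (-0.46).

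The counts past 1.5-fold in the endothelial groups are to be read beside the 6.4% higher and 1.89% lower among all genes over the floor. Of 26 receptors for VEGF, angiopoietin, semaphorins and related ligands, 19 reached the floor and 1 was past 1.5-fold: Ramp2, a partner of the adrenomedullin receptor, at 2.57 in the MKO pool and 1.43 in the control pool (0.79). The VEGF receptor Kdr stood at 7.61 in the MKO pool and 8.36 in the control pool, Flt1 at 8.02 and 6.27, and the angiopoietin receptor Tek at 7.18 and 8.82. Of 18 pan-endothelial genes, 13 reached the floor and 0 were past 1.5-fold; Ptprb, a receptor phosphatase, had 42.9 in the MKO pool and 46.3 in the control pool. Of 34 endothelial transcription factors, 22 reached the floor, with a median of -0.05, and 1 was past 1.5-fold. That was Klf2, a factor induced by shear stress, at 1.94 in the MKO pool and 1.22 in the control pool (0.61). The Klf2 ratio was larger in the clusters most alike, at 1.20 in cluster 9, 0.81 in cluster 5 and 0.77 in cluster 2. Gata4, a factor of sinusoidal identity, stood at 9.35 in the MKO pool and 9.69 in the control pool.

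Secreted factors were also close between the pools. Of 30 angiocrine genes, 10 reached the floor, with a median log2 ratio of 0.03 and 0 past 1.5-fold. Bmp6, which with Bmp2 signals to hepatocytes, had 7.60 in the MKO pool and 6.92 in the control pool. Wnt2, a Wnt ligand of the central lobule, had 1.84 in the MKO pool and 1.92 in the control pool. The Wnt enhancer Rspo3 had 2.06 and 1.48 in cluster 4, against 17.5 in the MKO pool and 21.7 in the control pool of cluster 9. Of the zonation lists, 4 of 11 pericentral and 6 of 11 periportal genes reached the floor, none past 1.5-fold. The clotting genes F8 (21.9 in the MKO pool and 22.2 in the control pool), Tfpi and Pros1 had ratios from -0.16 to -0.02.

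In the TGF-beta and BMP lists, Bmper and Id3 were the members past 1.5-fold. Tgfbr1, the gene deleted in the MKO mice, had 0.822 in the MKO pool and 1.11 in the control pool of cluster 4, both below the floor. In cluster 2, the one rich in macrophage genes, it had 4.87 in the MKO pool and 13.5 in the control pool. Of 20 receptors and Smads, 11 reached the floor in cluster 4, with a median of -0.07. Bmper, a secreted protein that binds BMPs (chromosome 9, 23223076 to 23485200, + strand), had 0.714 in the MKO pool and 1.65 in the control pool (-1.07). It was -0.90 in cluster 9, at 0.477 and 1.01, and 0.37 in cluster 5. Bmper reached the floor only through the control pool, where it is higher, and the mean of its pools, 1.18, lies below it. The receptor Tgfbr2 (0.09) and the inhibitory Smads Smad6 (-0.35) and Smad7 (-0.03) lay within 1.5-fold. Among ligands and targets 5 of 22 reached the floor, and Id3, a BMP target, stood at 3.54 in the MKO pool and 1.96 in the control pool (0.81; 0.35 in cluster 9 and 0.78 in cluster 5).

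Uptake, lipid and junction genes completed the endothelial groups. Of 21 scavenger and endocytic genes 12 reached the floor, with a median of 0.01 and Clec4g alone past 1.5-fold; Stab1, a scavenger receptor, stood at 6.53 in the MKO pool and 5.56 in the control pool, and Cd36, which takes up fatty acids, at 7.21 and 6.69. Of 22 lipid handling genes 5 reached the floor, with Gpihbp1 and Apoe past 1.5-fold higher and the cholesterol exporter Abca1 past it lower, at 1.87 in the MKO pool and 2.87 in the control pool (-0.59). Abca1 had -0.51 in cluster 9, -0.68 in cluster 5 and -1.01 in cluster 2. Of 29 genes of junctions, caveolae and cytoskeleton 16 reached the floor and 0 were past 1.5-fold. In the shear stress list 2 of 15 reached it, Klf2 and the aryl hydrocarbon receptor Ahr, which had 1.85 in the MKO pool and 1.16 in the control pool (0.62) but -0.38 in cluster 9. Of 18 Notch pathway genes 3 reached the floor, with ratios from -0.30 to -0.17.

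Few genes of the capillarised state and of mesenchymal change reached the floor, and 0 of these were past 1.5-fold, against 6.4% higher and 1.89% lower of all genes over the floor. Of 23 capillarisation and basement membrane genes 6 reached the floor, with Lama4 at 5.04 in the MKO pool and 6.46 in the control pool and Col4a1 at 2.71 and 2.13. Of 16 genes of endothelial to mesenchymal change, Zeb1 (12.7 in the MKO pool and 13.5 in the control pool) and Zeb2 (9.07 and 10.5) reached it. Of 18 cell cycle genes 0 reached the floor, and they summed to 0.445 in the MKO pool and 0.433 in the control pool.

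Among adhesion, antigen presentation and interferon genes, 6 list members over the floor were past 1.5-fold higher in the MKO pool. Vcam1, an adhesion molecule for leukocytes (chromosome 3, 116109949 to 116129688, - strand), had 1.45 in the MKO pool and 0.506 in the control pool (1.31). Its ratio was 0.91 in cluster 9 (3.68 and 1.90), 1.04 in cluster 5 and -0.10 in cluster 2. Of 24 adhesion and recruitment genes 7 reached the floor, and Vcam1 was the member past 1.5-fold, with a list median of 0.14; Pecam1 stood at 0.10. Vcam1 reached the floor only through the MKO pool, where it is higher: the mean of its pools, 0.979, lies below it. Of 20 antigen presentation genes 3 reached the floor and all 3 were past 1.5-fold, with the class I genes H2-D1 at 6.96 in the MKO pool and 2.67 in the control pool (1.34) and H2-K1 at 11.6 and 7.14 (0.69), and B2m at 7.99 and 4.55 (0.80). Reads of the near-identical H2 genes may be split uncertainly. Of 31 interferon-stimulated genes 4 reached the floor, with Iigp1, an interferon-inducible GTPase, at 3.97 in the MKO pool and 1.70 in the control pool (1.17) and Bst2 at 1.72 and 0.995 (0.72).

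Those ratios were not limited to cluster 4. H2-D1 stood at 1.18 in cluster 9, 1.24 in cluster 5 and 1.18 in cluster 2, and Iigp1 at 0.98, 1.09 and 0.98. Taking the same over-floor members, the antigen presentation median was 0.80 in cluster 4, 0.36 in cluster 9, 0.79 in cluster 5 and 0.61 in cluster 2. For the interferon-stimulated genes these medians were 0.53, 0.22, 0.68 and 0.21.

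**Figure D3:**
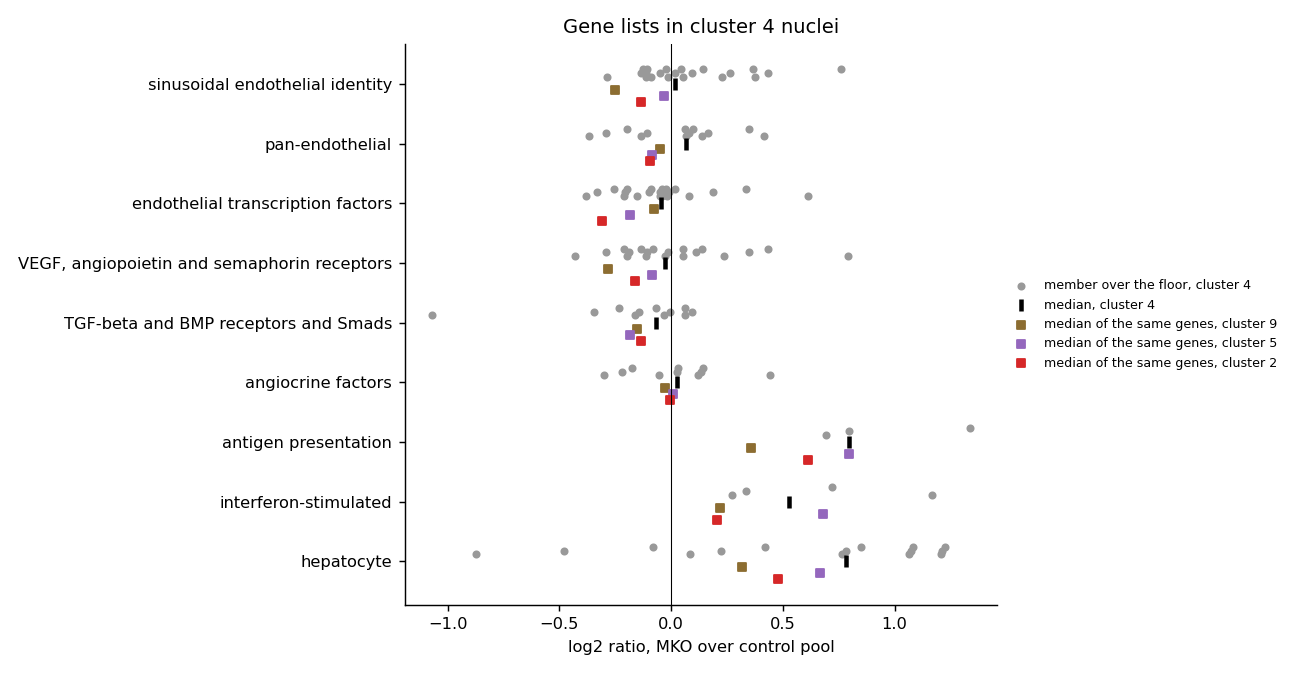
Log2 ratio of the MKO over the control pool for list members over the floor in cluster 4 (grey points), their median (black bar) and the median of the same genes in clusters 9, 5 and 2 (coloured squares). The medians of the 6 endothelial lists drawn lie between -0.07 and 0.07 in cluster 4, whereas the antigen presentation median is 0.80, the interferon-stimulated median 0.53 and the hepatocyte median 0.78.

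The highest ratios of all belonged mostly to short genes, since 30 of the 34 past 2-fold higher span under 10 kb. Orm1, an acute phase protein secreted by hepatocytes (chromosome 4, 63344560 to 63348163, + strand), had 1.51 in the MKO pool and 0.361 in the control pool (1.73). The ratio was 1.67 in cluster 9, 1.46 in cluster 5 and 1.03 in cluster 2. Rbp4, Hpx, Ttr, Serpina3k, Mup3 and Hp, also hepatocyte products, had ratios from 1.16 to 1.26. Of the 34 genes past 2-fold higher, 6 were in the hepatocyte list, 5 were ribosomal protein genes named Rpl or Rps, 3 were class I genes and 1, Gm16271, was selective for cluster 4. At least 1.5-fold higher too were 27 of the 34 in cluster 9, 31 in cluster 5 and 28 in cluster 2. The share of all genes past 1.5-fold in those clusters is not given here. The median ratio of the same 1796 genes was -0.03 in cluster 9, -0.11 in cluster 5 and -0.12 in cluster 2. In the hepatocyte list as a whole 15 of 20 genes reached the floor, 9 were past 1.5-fold higher (6.4% of all genes over the floor were) and 1, the urea cycle enzyme Cps1, was past it lower, at 2.06 in the MKO pool and 3.88 in the control pool (-0.87). Alb stood at 50.3 and 29.6 and Apoe, made by hepatocytes and macrophages, at 42.2 in the MKO pool and 21.6 in the control pool. In bulk, 0 of the 20 hepatocyte genes rose or fell by limma, against 2.96% and 0.0853% of all genes. At an unadjusted p under 0.05 limma had 0 higher and 1 lower, against 8.37% and 3.74% of all genes. With 20 genes, such counts do not set the list apart from all genes.

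The lowest ratio belonged to Cyp3a25, a cytochrome P450 (chromosome 5, 145977194 to 146009618, - strand). It had 1.16 in the MKO pool and 3.34 in the control pool (-1.42), with -1.49 in cluster 9 and -1.32 in cluster 5. Dpyd, which degrades pyrimidines, stood at 1.40 in the MKO pool and 3.64 in the control pool (-1.30), with Slc7a2 at -1.25 and Adk at -1.08. All 4 had their highest mean in cluster 0, 1 or 3, the clusters with the largest hepatocyte sums. As means of the pools, Cyp3a25 had 37.6 in cluster 0 and Adk 67.8 in cluster 3. Dpyd had 76.2 and Slc7a2 55.1 in cluster 1. In cluster 0 the ratio was -0.91 for Cyp3a25 and -0.78 for Slc7a2, but 0.22 for both Dpyd and Adk. Lypd6 (-1.03), at 0.667 in the MKO pool and 1.51 in the control pool, had its highest level in cluster 4. In cluster 5, its next cluster, it was lower in the MKO pool too, at 0.625 and 1.11 in the control pool (-0.71). In cluster 9 it was low, at 0.342 in the MKO pool and 0.250 in the control pool (0.31). Of genes highest in cluster 4, Fat4, an atypical cadherin, stood at 1.017 in the MKO pool and 2.004 in the control pool (-0.89; -0.67 in cluster 9).

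The ratio moved with the length of the gene. Over 1786 genes with a span in GENCODE, the median ratio was 0.73 for 132 genes under 10 kb, 0.08 for 190 genes of 10 to 30 kb, -0.06 for 692 genes of 30 to 100 kb, -0.13 for 602 genes of 100 to 300 kb and -0.23 for 170 genes over 300 kb. The selective genes followed the same order, with 0.54 for 6 genes under 10 kb and -0.13 for 8 genes over 300 kb. The same genes gave 0.37, 0.60 and 0.50 under 10 kb in clusters 9, 5 and 2. Ribosomal protein genes, which are short, summed to 89.2 in the MKO pool and 47.8 in the control pool of cluster 4, and mitochondrial genes to 122 and 91.6.

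With each ratio set against the median of its own span class, an alternative added after the data were seen, 9 genes were at least 2-fold higher and 12 lower, in place of 34 and 6. Of the first 34, 5 stayed past 2-fold: Vcam1 (1.24), Rpl11 (1.17), Gm16271 (1.12), Iigp1 (1.09) and Orm1 (1.01). Of these, Vcam1, Rpl11 and Orm1 reached the floor only through the MKO pool and drop out with the floor on the mean of the pools, an alternative also added after the data were seen. That floor removes 13 of the 34 higher genes, among them Ly6a and Ifitm3, and 2 of the 6 lower genes, Bmper and Lypd6. On that scale H2-D1 stood at 0.61, H2-K1 at -0.03 and B2m at 0.07, so the median of these 3 antigen presentation genes was 0.07 in place of 0.80. Bst2 stood at -0.01, Id3 at 0.09 and Klf2 at -0.11, Gpihbp1 at 0.16 and Clec4g at 0.69. Bmper stood at -0.94 and the medians of the selective genes and of the identity list at 0.05 and 0.07. What part the length trend, the ribosomal share or the hepatocyte sum has in each ratio was not tested.

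**Figure D4:**
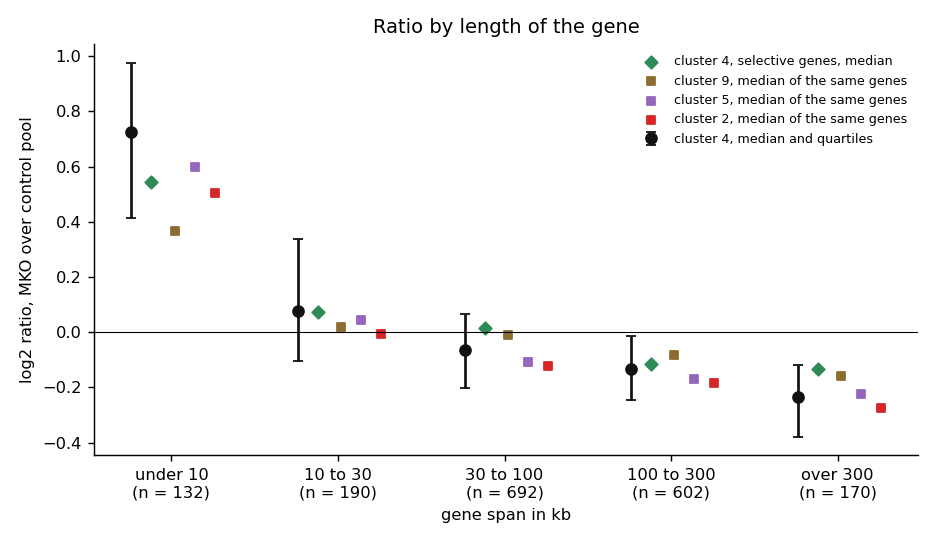
Median log2 ratio of the MKO over the control pool for genes grouped by their span in kb: cluster 4 (black, bars from the 25th to the 75th percentile), the selective genes of cluster 4 (green) and the same genes in clusters 9, 5 and 2 (coloured squares). The medians fall from 0.73 under 10 kb to -0.23 over 300 kb in cluster 4.

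Bulk liver gave the replicated reading of the same genes, with the limit that fewer sinusoidal cells and less RNA per cell cannot be told apart in whole tissue. Values are normalised read counts, tested with limma on log2(value + 1) across 15249 genes; 452 genes rose in MKO livers (2.96%) and 13 fell (0.0853%). Tgfbr1 (chromosome 4, 47353222 to 47414931, + strand) had 560, 857 and 735 in the MKO livers and 737, 810 and 777 in the control livers (log2 fold change -0.13 ± 0.16 SE, adjusted p = 0.816). Its values overlapped between the genotypes.

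No selective gene passed the test in bulk. Of 79 tested, 0 rose and 0 fell by limma, and edgeR and DESeq2 also called 0. At an unadjusted p under 0.05 limma had 9 higher (11.4%) and 1 lower (1.27%), against 8.37% and 3.74% of all genes. Their median log2 fold change was 0.20, with 55 of 79 above 0 (69.6%), against a median of -0.02 and 45.9% above 0 over all genes. The genotypes' values did not overlap for 12 of the 79 on the higher side and 3 on the lower side, against 10.4% and 9.02% of all genes. Mylip is the 1 selective gene with an adjusted p under 0.05 in the authors' deposited table (log2 fold change 0.45, adjusted p = 0.0160).

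Stab2 had normalised read counts of 1671, 1145 and 1145 in the MKO livers and 1405, 1112 and 847 in the control livers (log2 fold change 0.24 ± 0.21, limma adjusted p = 0.729). Clec4g had 688, 712 and 683 in the MKO livers and 795, 581 and 479 in the control livers (0.20 ± 0.18, adjusted p = 0.732). In both genes the highest control liver, replicate 1, lay within or above the MKO range. Dnase1l3 had 627, 582 and 518 in the MKO livers and 574, 462 and 462 in the control livers (0.21 ± 0.14, adjusted p = 0.624). Fcgr2b (0.17 ± 0.15, adjusted p = 0.724) and Bmp2 (0.22 ± 0.15, adjusted p = 0.643) overlapped between the genotypes as well, so for all 5 markers the difference was within the spread between livers. With 1 library left out, Stab2 ran from 0.056 without control replicate 3 to 0.42 without control replicate 1, and Clec4g from 0.031 to 0.40 without the same libraries. Over these refits the 5 markers ran from 0.031 to 0.42, and the smallest limma adjusted p was 0.378.

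Mylip, a ubiquitin ligase for the LDL receptor (chromosome 13, 45389742 to 45412022, + strand), had the smallest p among the selective genes. It had 354, 401 and 332 in the MKO livers and 289, 253 and 255 in the control livers (0.44 ± 0.13, limma adjusted p = 0.161), without overlap. Plpp1 (0.48), Oit3 (0.38), Col13a1 (0.44) and Fam167b (0.54) followed, with adjusted p from 0.275 to 0.305. On the lower side stood Ppp1r2 (-0.31), Sgpp1 (-0.22), Shroom2 (-0.26), Cpne2 (-0.34) and Oxr1 (-0.30), with adjusted p from 0.332 to 0.615. Shroom2, higher in the MKO pool of nuclei, thus had a negative value in bulk.

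All 22 identity genes had a positive log2 fold change in bulk, with a median of 0.29, against 45.9% of all genes above 0. This was not particular to the identity list. Also above 0 were 18 of 18 pan-endothelial genes (median 0.28), 13 of 14 stellate genes (0.25) and 17 of 18 macrophage genes (1.56). Of the hepatocyte genes 6 of 20 were above 0 (-0.13), and of the cholangiocyte genes 0 of 10 (-0.22). Limma called 1 of the 22, against 2.96% of all genes. Each liver's level was also taken as the median shift of a list's genes from their mean in the 3 control livers. For the identity list it was 0.32, 0.24 and 0.25 in the MKO livers and 0.26, -0.09 and -0.13 in the control livers. For the selective genes it was 0.28, 0.09 and 0.08 in the MKO livers and 0.14, -0.08 and -0.05 in the control livers. In both lists control replicate 1 lay within the MKO range. Leaving out control replicate 3 or MKO replicate 1 brought the median of the selective genes to 0.11 and 0.12.

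The identity gene called by limma was Mrc1 (chromosome 2, 14229392 to 14332057, + strand), with 1311, 1464 and 1205 in the MKO livers and 786, 585 and 471 in the control livers (1.14 ± 0.18, limma adjusted p = 0.0131). In the nuclei Mrc1 stood at 14.4 in the MKO pool and 15.7 in the control pool of cluster 4, and at 10.3 and 7.51 in cluster 2. Its call was lost without control replicate 2 (adjusted p = 0.0622) or MKO replicate 2 (0.0699). Of the macrophage list, which holds Mrc1, 14 of 18 genes rose in bulk, against 2.96% of all genes. The part of macrophages in the bulk rise of Mrc1 was not tested.

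Pecam1, a junction protein of endothelium and leukocytes (chromosome 11, 106654217 to 106750628, - strand), was the 1 called gene of 18 pan-endothelial genes and lies outside the naming rule. It had 432, 478 and 584 in the MKO livers and 300, 254 and 210 in the control livers (0.97 ± 0.17, limma adjusted p = 0.0202). In the nuclei it stood at 5.49 in the MKO pool and 5.13 in the control pool of cluster 4, whereas cluster 2 had 8.36 in the MKO pool and 1.15 in the control pool. Its call was lost without control replicate 2, control replicate 3, MKO replicate 2 or MKO replicate 3 (adjusted p from 0.0641 to 0.0858).

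Klf2 rose in bulk (chromosome 8, 72319033 to 72321656, + strand), with 576, 389 and 471 in the MKO livers and 304, 216 and 201 in the control livers (0.995 ± 0.20, limma adjusted p = 0.0349). The call was lost without any 1 library other than control replicate 1 (adjusted p from 0.0591 to 0.144). Zeb2, at 640, 856 and 740 in the MKO livers and 475, 387 and 479 in the control livers (0.73 ± 0.15, limma adjusted p = 0.0339), lost its call without any 1 library other than MKO replicate 1 (0.0751 to 0.142). In the nuclei Zeb2 was highest in cluster 2, at 52.8 in the MKO pool and 50.2 in the control pool.

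Vcam1, higher in cluster 4, had 330, 479 and 565 in the MKO livers and 299, 232 and 198 in the control livers (0.90 ± 0.22, limma adjusted p = 0.0893). The 2 genotypes were apart in every liver, DESeq2 called it (adjusted p = 0.00516), and limma called it without MKO replicate 1 (0.0273), while the other alternatives gave 0.0707 to 0.283. H2-D1 (0.42 ± 0.16, limma adjusted p = 0.334) did not pass. In the authors' deposited table both genes had an adjusted p under 0.05, with 0.00843 for H2-D1 (log2 fold change 0.43) and 0.000506 for Vcam1 (0.92). That table has 763 genes higher and 117 lower at this threshold. Of the antigen presentation list 9 of 20 genes rose in bulk and of the interferon-stimulated list 10 of 32, against 2.96% of all genes. T and NK cell genes moved with them: 3 of 14 rose and all 14 were above 0, with a median of 1.44. The part of immune cells in these list counts was not tested.

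**Figure D5:**
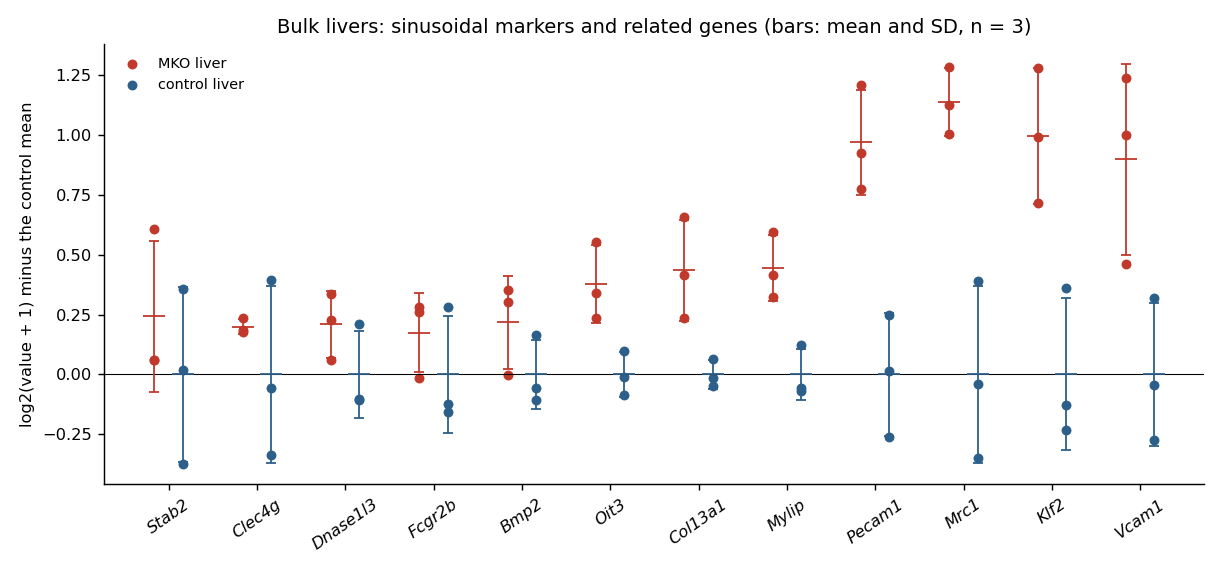
Bulk normalised read counts per liver, as log2(value + 1) minus the control mean of each gene, for 3 MKO livers (red, left) and 3 control livers (blue, right); bars give the mean and SD. The 5 sinusoidal markers overlap between the genotypes, while Oit3, Col13a1, Mylip, Pecam1, Mrc1, Klf2 and Vcam1 do not.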

How the data were processed

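For the nuclei, the authors deposited a signal table with a mean per gene, cluster and pool, in 26 columns that each sum to 10000. For bulk liver they deposited a signal of read counts over a library's own size factor. Whole reads were recovered for 100% of values (tolerance 0.01; 1 read was worth 0.963 to 1.22). The table also holds log2 fold changes and p-values, raw and adjusted, deposited by the authors. Seurat 4.0.1, Cell Ranger, DESeq2, RSEM 1.3.3, STAR and FastQC are listed with mm10 per the submitters' processing notes. The sources used here do not give the clustering, the filters, the treatment of doublets or the averaging.

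The pooled samples were matched to the nucleus columns by their labels. Bulk genes with a mean of at least 1 were tested with limma 3.58.1 (trend, log2(value + 1), genotype as the only term, Benjamini-Hochberg adjustment over all genes) in R 4.3.3; 15249 of 15283 entered. edgeR 4.0.16 (quasi-likelihood) and DESeq2 1.42.0 on the recovered reads were alternatives. The pseudocount understates the change of low genes. The labels do not state that each library is its own animal, and the p-values then cover only the spread between these samples, which may be technical. Ratios of nuclei used Python 3.11.15. Spans and coordinates came from GENCODE for mm10, and promoters from RefSeq. Scripts were tested on simulated data.

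The genes and lists were chosen with earlier results of these data known. Named genes were Tgfbr1, the 20 most selective genes, the 15 highest and 15 lowest ratios, the 10 highest and 10 lowest among selective genes, list members past 1.5-fold or the up to 4 most abundant, and in bulk the selective genes called or, with none, the 5 smallest p in each direction. Other genes named in the report (Kdr, Flt1, Nrp1, Nrp2, Robo4, Maf, Gata4, Zbtb46, Tgfbr2, Smad6, Smad7, Ehd3, Stab1, Sgk1, Selenop, Pecam1, Vcam1 and H2-D1 in bulk, and Vwf, Csf1r and Lyve1 as markers) were added for their roles after their values were seen. Tfec was added for its adjusted p in the authors' deposited table.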

Additional observations from a re-analysis of the deposited data

How the results depend on the processing

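In the nuclei, the medians of the selective genes (-0.00 to 0.14) and of the identity list (0.01 to 0.10) stayed near 0 under the alternatives run. The counts past 2-fold did not hold. They were 12 higher and 2 lower with a pseudocount of 1/2 of the floor, 70 and 37 with the floor at the 75th percentile, 18 and 3 with it at the 95th, 21 higher with the floor on the mean of the pools, 3 lower with the median centred at 0, and 9 higher and 12 lower with span classes centred. The floor on the mean, the removal of ribosomal protein genes and span centring were added after the data were seen. In bulk, 452 higher and 13 lower genes became 175 to 410 and 5 to 31 with 1 library left out, lowest higher counts without control replicate 2 (238), MKO replicate 2 (175) and MKO replicate 3 (181); lower counts were 5 without control replicate 2 or MKO replicate 2, 6 without control replicate 1 and 31 without MKO replicate 1. DESeq2 called 50 lower. Selective genes had 0 calls in each direction under every alternative run. Tgfbr1 in bulk ran from -0.27 without MKO replicate 2 to 0.035 without MKO replicate 1, against -0.13; the cause was not tested. The replicate numbers did not pair the livers (correlations of deviations 0.06, -0.03 and -0.11); with a replicate block 391 genes were higher and 17 lower, and Zeb2 lost its call (adjusted p = 0.0701). The number of nuclei behind a mean is unknown, so the counting error of the nuclei values is unknown too.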
